A study of Mus musculus with 3 samples.

Results

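Antigen-presenting cells (APCs) sorted from the spinal cord were compared directly with monocytes sorted from the bone marrow of mice with experimental autoimmune encephalomyelitis (EAE), a model of multiple sclerosis in which T cells attack myelin. The question was how far the transcriptome of monocytes in the marrow lies from that of the monocyte-derived cells of the inflamed tissue. These are 2 of the 3 RNA-Seq libraries of the study. The other library, spinal cord monocytes, is given beside them, and values of 3 libraries always come in the order bone marrow monocytes, spinal cord monocytes, APCs. All mice were female C57BL/6J animals of 10 to 12 weeks, labelled WT. They had received myelin oligodendrocyte glycoprotein (MOG) peptide in complete Freund's adjuvant and pertussis toxin at 250 ng per injection, and cells were taken at days 14 to 15. No library from unimmunized mice was used, so both populations carry the immunization. The bone marrow monocytes were pooled from 13 mice in 2 experiments, enriched with an isolation kit and gated as CD45+ CD11b+ Ly6Chi Ly6G- CD11c-. The APCs were pooled from 18 mice in 3 experiments, released with collagenase, collected from a Percoll gradient and gated as CD45+ CD11b+ CD64+ Ly6Clow/- Ly6G-. The spinal cord monocytes, also of 18 mice in 3 experiments, were gated in that preparation as Ly6Chi. Tissue, cell preparation, gate and population differ together and cannot be told apart. The title and the tissue label of the APC library name the spinal cord, while its source label names the bone marrow, and the title was followed here.

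Classical monocytes are made in the bone marrow from dividing progenitors, carry enzymes in granules laid down early in development, and leave for the blood by way of the chemokine receptor CCR2. In inflamed tissue they can lose surface Ly6C and become macrophages or dendritic cells. Such cells take up and digest proteins, load peptides on MHC class II molecules, give T cells costimulatory or inhibitory signals, and secrete cytokines.

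The comparison covered the 22238 genes listed for all 3 libraries, on which 32115707, 26116588 and 28209327 estimated reads fell. Each population was 1 library, so no difference has a replicate check and no p-value is given. A log2 fold change is the median of the posterior ratio of APC to bone marrow reads after scaling by size factors, followed by its 98% interval. The interval treats reads as independent counts and leaves out variation between libraries. PCR copies are not independent molecules, so it can be too narrow even for counting error. Parentheses after reads hold that fold change with its interval, and a lone value after a gene is its log2 fold change. TPM, a measure of transcript share with a fixed total, also corrects for length and was rescaled over the common genes. A gene was active when it passed 3 TPM in either of these 2 libraries and was called when the interval lay beyond a 2-fold change. There were 10190 active genes. In APCs 1426 of them (14.0%) were called higher and 1199 (11.8%) were called lower. On TPM alone, 2-fold changes of log2(TPM + 1) gave 1315 genes higher and 2433 lower. Across active genes the median change was -0.17 (log2) on reads and -0.47 on log2(TPM + 1), and relative to the latter median, an alternative chosen after seeing the data, the counts were 1794 and 1190. Of the called genes, 1261 higher and 1177 lower ones also passed 2-fold on TPM.

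The higher side reached further than the lower. Of the genes called higher, the interval of 414 lay wholly beyond 16-fold and that of 175 beyond 64-fold, against 41 and 4 of those called lower. The genes called higher held 11.2%, 33.7% and 42.9% of TPM in the 3 libraries, and those called lower 21.7%, 8.45% and 5.33%. The APC file lists 22242 genes and the monocyte files 54432, and the effective length of a gene, the part of its transcripts on which reads can start, can differ between the files. It differed over 1.5-fold for 700 active genes. For each such gene named here, the ratio of effective lengths, APCs over bone marrow monocytes, is given.

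**Figure D1:**
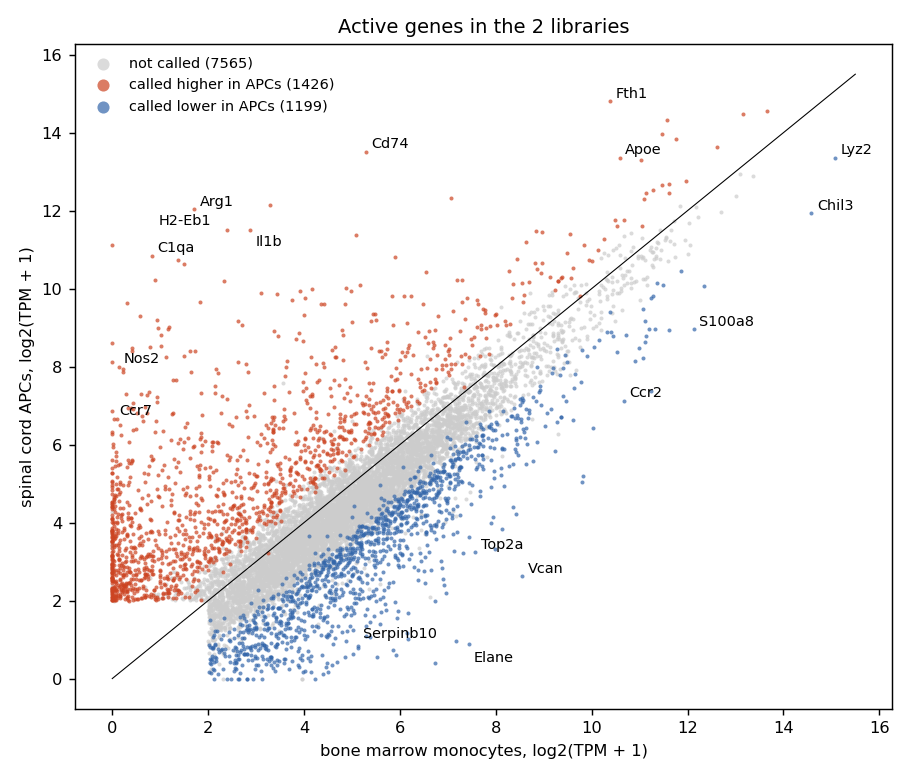
Each point is 1 of the 10190 active genes, with log2(TPM + 1) in bone marrow monocytes on the horizontal axis and in APCs on the vertical axis, coloured by the call on reads, and the line marks equal TPM. Of the 1426 genes called higher, those with bone marrow TPM near 0 spread up the left edge, far from the line. The 1199 called lower lie closer to the line.

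The labels were checked against the genes of the surface proteins used in sorting, which are no findings. Ly6c2, one of a pair of close paralogs for Ly6C between which reads can be split, had 58313, 35082 and 10785 reads, with a log2 fold change of -2.11 (-2.15 to -2.07). Its paralog Ly6c1 had 680, 777 and 355 reads and was not called. Itgax, encoding CD11c, on which the marrow cells had been gated as negative, had 20, 2816 and 9379 reads. Fcgr1, encoding CD64, on which only the spinal cord cells had been gated, had 3445, 9342 and 6038 reads. Both Itgax and Fcgr1 were called higher, Fcgr1 on reads but not on TPM. Itgam, encoding CD11b, had 45128, 44871 and 46432 reads, and Ptprc, encoding CD45, 39058, 21704 and 16816 reads. Ly6g, the neutrophil marker gated out of both populations, stayed at 38, 22 and 24 reads and was not active.

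The most abundant genes differed in part. In TPM, the 10 at the top of the marrow library were Lyz2, Chil3, mt-Atp8, Tmsb4x, mt-Co1, Eef1a1, Actb, Tmsb10, mt-Co3 and Ly6c2, and those of the APC library were Fth1, mt-Atp8, mt-Co1, mt-Co2, mt-Atp6, B2m, mt-Co3, Cd74, Apoe and Lyz2. Thus a lysozyme, a chitinase-like lectin, actin-binding proteins and Ly6C led in the marrow, and an iron store, both light and invariant chains of antigen presentation and a lipid carrier led in the spinal cord. The mitochondrial genes in both lists are taken up at the end.

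The MHC class II genes, which encode the molecules that show peptides to CD4 T cells together with the proteins that load them, were far more abundant in APCs. Of 13 genes of this list in the files, 12 were active, 11 were called higher and 0 lower. The median log2 fold change of all 13 was 5.01, against 0.33 over all common genes. It was 4.70 with H2-Eb2, which had no read in the marrow, at its bound, and 4.40 without H2-Ab1, whose effective lengths were unequal. On log2(TPM + 1), which understates the change of low genes, the median of all 13 was 3.17. For later lists that median is given where it differed by over 1.5 times. Summed TPM went from 2662 through 16878 to 35585. The promoters of these genes share a proximal motif, the inverted CCAAT box of the class II promoter module, and 7 of the 9 members with a promoter in RefSeq hold CCAAT or its reverse complement ATTGG within 110 bases before the start site (77.8%, against 27.9% of 8092 active genes). The stretches of these 7, all on chromosome 17, are shown because they carry that shared element, in capitals, read 5′ to 3′ on the strand of the gene in GRCm38.p6 with the start site after the last base. The motif lay 35 to 100 bases before the start. A match describes the letters only.
H2-Aa, chr17:34287824-34287933, minus strand: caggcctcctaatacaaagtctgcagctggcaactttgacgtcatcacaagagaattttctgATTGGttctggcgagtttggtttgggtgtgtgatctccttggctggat
H2-Eb1, chr17:34305757-34305866, plus strand: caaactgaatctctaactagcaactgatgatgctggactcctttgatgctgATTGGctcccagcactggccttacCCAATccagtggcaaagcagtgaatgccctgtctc
H2-Eb2, chr17:34325565-34325674, plus strand: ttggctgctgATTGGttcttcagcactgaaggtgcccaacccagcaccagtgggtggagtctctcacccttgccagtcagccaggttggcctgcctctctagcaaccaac
H2-DMb1, chr17:34153081-34153190, plus strand: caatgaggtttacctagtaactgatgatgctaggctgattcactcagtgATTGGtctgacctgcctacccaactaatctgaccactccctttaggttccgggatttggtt
H2-DMb2, chr17:34145139-34145248, plus strand: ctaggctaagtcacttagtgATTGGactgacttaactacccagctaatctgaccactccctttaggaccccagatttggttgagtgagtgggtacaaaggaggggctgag
H2-Oa, chr17:34092269-34092378, plus strand: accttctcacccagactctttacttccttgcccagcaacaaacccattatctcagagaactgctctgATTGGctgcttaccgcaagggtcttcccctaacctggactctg
H2-Ob, chr17:34238795-34238904, plus strand: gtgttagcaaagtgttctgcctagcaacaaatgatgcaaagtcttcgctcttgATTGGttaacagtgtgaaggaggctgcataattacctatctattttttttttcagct

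H2-Eb1, the beta chain of I-E, which this strain expresses without a partner alpha chain, had 62, 20913 and 59459 reads, with a log2 fold change of 10.21 (9.81 to 10.66). H2-Aa, the alpha chain of I-A, had 172, 31988 and 82725 reads (8.81, 1916 and 4520.1 TPM), with 9.23 (8.98 to 9.49). Its partner H2-Ab1 had 1329, 32698 and 96478 reads and 6.51 (6.42 to 6.60) (effective length ratio 1.91). In each of these genes the spinal cord monocytes lay between the other libraries, far above the marrow. Cd74, the invariant chain that escorts class II molecules to the endosome, reached 11642 TPM and stood among the 10 most abundant genes of the APC library, from 38.2 TPM in the marrow, with 8.57 (8.45 to 8.69). Ciita, the transactivator of the whole class II module, had 80, 2460 and 4555 reads and 6.14 (5.78 to 6.54). The proteins that edit bound peptides differed less than the chains of I-A. The subunits of H2-DM, which exchanges peptides, had log2 fold changes of 2.15 (H2-DMa), 2.64 (H2-DMb1) and 3.64 (H2-DMb2). Those of H2-O, which inhibits H2-DM, had 5.005 (H2-Oa) and 3.79 (H2-Ob). H2-Oa had 41, 227 and 1067 reads. Ctss, the protease that trims the invariant chain, had 2097, 6079 and 10133 TPM and 2.57 (2.56 to 2.59). H2-Eb2 had 0, 24 and 62 reads, at least 25.9-fold higher in APCs than the floor of 3 reads per library, but under 3 TPM. March1, a ubiquitin ligase that removes class II molecules from the surface, was the active member that was not called, with 9011, 6108 and 6910 reads.

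**Figure D2:**
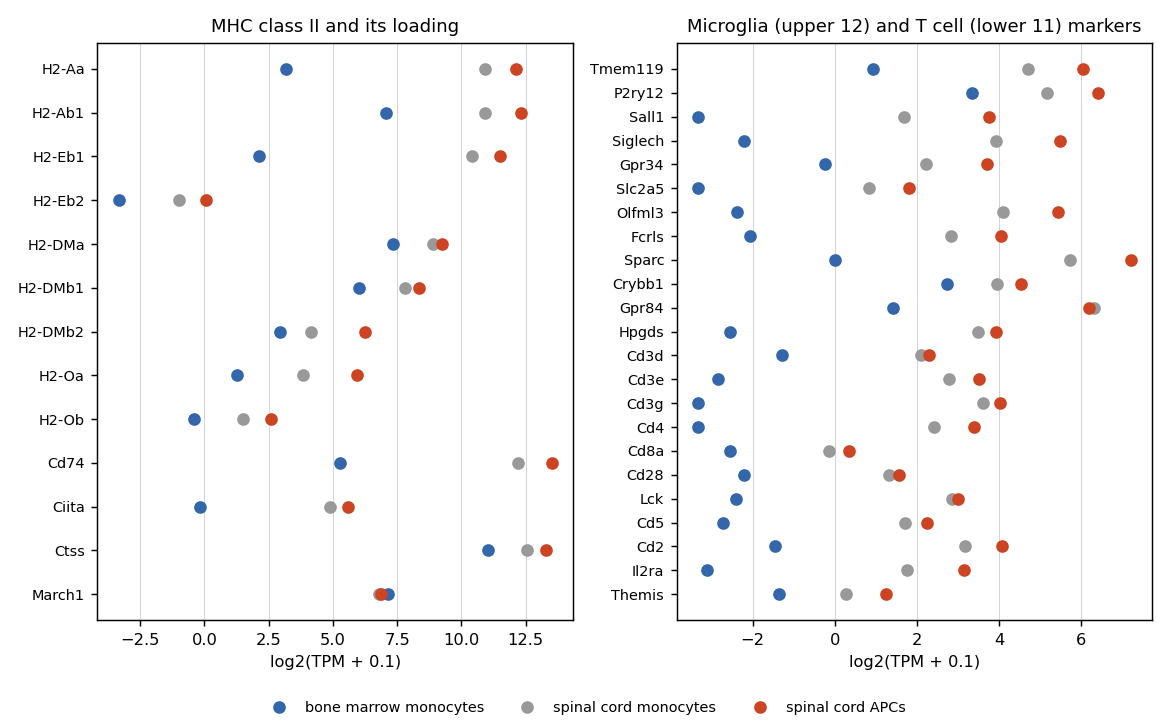
Log2(TPM + 0.1) of the 13 MHC class II genes (left) and of the 12 microglia and 11 T cell markers (right) in each of the 3 libraries, 1 point per library. In the left panel all genes but March1 are lowest in bone marrow monocytes and highest in APCs, and in the right panel every marker is lowest in bone marrow monocytes.

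Markers of other cells moved in the same direction. All 12 microglia markers were called higher in APCs, with 2 of them at 0 reads in the marrow, and their summed TPM went from 23.2 through 269 to 546. Tmem119, a microglial surface protein, had 77, 973 and 2704 reads, and the microglial transcription factor Sall1 had 0, 300 and 1415 reads. Siglech, a lectin of microglia and plasmacytoid dendritic cells, had 5, 387 and 1107 reads (effective length ratio 0.585), and Olfml3 9, 1415 and 4714 reads. P2ry12, a purine receptor of microglia, had 417, 1179 and 2923 reads, and the matrix protein Sparc 28, 1931 and 5895 reads. Of 11 T cell markers 8 were active and all 8 were called higher, with summed TPM of 1.24, 54.9 and 87.0. Cd3e, a chain of the T cell receptor complex, had 1, 138 and 285 reads, and Cd4 had 0, 289 and 624 reads (effective length ratio 2.67). Il2ra, which activated and regulatory T cells carry and dendritic cells can express, had 1, 196 and 731 reads. In bulk RNA, more cells of a type and more RNA per cell cannot be told apart, and the part of these cells in the class II and other differences was not tested.

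MHC class I genes, which serve presentation to CD8 T cells, differed less. Of 18, all active, 9 were called higher, 5 of them also on TPM, and 0 lower, with a median of 1.07. B2m, the light chain, had 3478, 10747 and 14609 TPM and a log2 fold change of 2.38 (2.36 to 2.40). H2-Q7, a nonclassical heavy chain, had 717, 10352 and 7402 reads and 3.69 (3.56 to 3.83), and H2-K1, a classical heavy chain, 1.74 (1.72 to 1.77). Heavy chain genes are near-identical in parts, so reads could be split between them. Tap1, which carries peptides into the endoplasmic reticulum, had 1.07 (1.01 to 1.13), and Nlrc5, the class I counterpart of Ciita, 1.67 (1.58 to 1.76), while the immunoproteasome subunits Psmb8 (0.79), Psmb9 (0.57) and Psmb10 (0.14) were not called.

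Among 18 costimulatory and checkpoint genes, 17 of them active, 12 were called higher and 1 lower, with a median of 3.55. The list held the ligands of the inhibitory receptor PD-1. Cd274, encoding PD-L1, had 132, 26776 and 21655 reads and a log2 fold change of 7.68 (7.39 to 7.98). Pdcd1lg2, encoding PD-L2, had 1, 580 and 1247 reads and 9.86 (7.88 to 13.36), an interval widened by the single marrow read. Cd83, a maturation marker, had 14, 5234 and 6192 reads and 9.05 (8.25 to 10.02). Slamf7, a receptor that macrophages share with NK cells, had 30, 4985 and 6042 reads and 7.95 (7.38 to 8.60). The costimulators themselves started from a measurable level in the marrow. Cd40 had 189, 1793 and 1514 reads (3.32, 3.07 to 3.59), Cd80 406, 1819 and 1702 reads (2.39, 2.21 to 2.58) and Cd86 1160, 5612 and 4502 reads (2.28, 2.17 to 2.39), and all 3 had more reads in the spinal cord monocytes than in the APCs. Vsir, encoding the checkpoint protein VISTA, was the gene called lower, with 27316, 7630 and 7972 reads and -1.45 (-1.49 to -1.41).

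Genes of mature, migratory dendritic cells were higher, with a median of 7.42 (log2) over 16 members, or 4.35 on log2(TPM + 1). Of these, 5 had unequal effective lengths, and without them the median was 6.47. All 16 were active, 15 were called higher and 0 lower. For several of them the spinal cord monocytes stayed far below the APCs. Ccr7, the receptor that guides dendritic cells to lymph nodes, had 1, 114 and 3594 reads and a log2 fold change of 11.39 (9.40 to 14.89). Ccl22, a chemokine for CCR4-bearing T cells, had 7, 179 and 9550 reads and 10.61 (9.55 to 12.01). Ccl17, a chemokine of the same receptor, had 0, 129 and 2259 reads, at least 943-fold higher in APCs than the floor. Fscn1, an actin bundler of dendrites, had 0, 144 and 2811 reads, at least 1174-fold (effective length ratio 2.11). Cacnb3, a calcium channel subunit, had 0, 46 and 814 reads, at least 340.0-fold (ratio 1.61). Socs2, a feedback inhibitor of cytokine receptors, already had 1169 reads in spinal cord monocytes, between 8 and 1876 (ratio 1.74). Relb, a subunit of NF-kappa B, had a log2 fold change of 2.56 (2.36 to 2.76). Birc3, an inhibitor of apoptosis, was not called, with 3909, 5287 and 4068 reads. Markers of conventional dendritic cells stood at lower levels. Of 9, 8 were active, 4 were called higher and 1 lower, with a median of 3.94, or 1.09 on log2(TPM + 1). Summed TPM was 74.9, 31.6 and 57.8. The gene called lower was Flt3, which had the highest TPM of the list and is also counted among the progenitor genes below. Zbtb46, a transcription factor of that lineage, had 2, 31 and 241 reads, and Itgae, an integrin of its cross-presenting subset, 1, 44 and 243 reads. Clec9a, a receptor for dead cells on that subset, had 7, 118 and 211 reads (effective length ratio 0.451), and Cd209a 9, 19 and 155 reads. Their part in the mature dendritic cell genes was not tested.

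**Figure D3:**
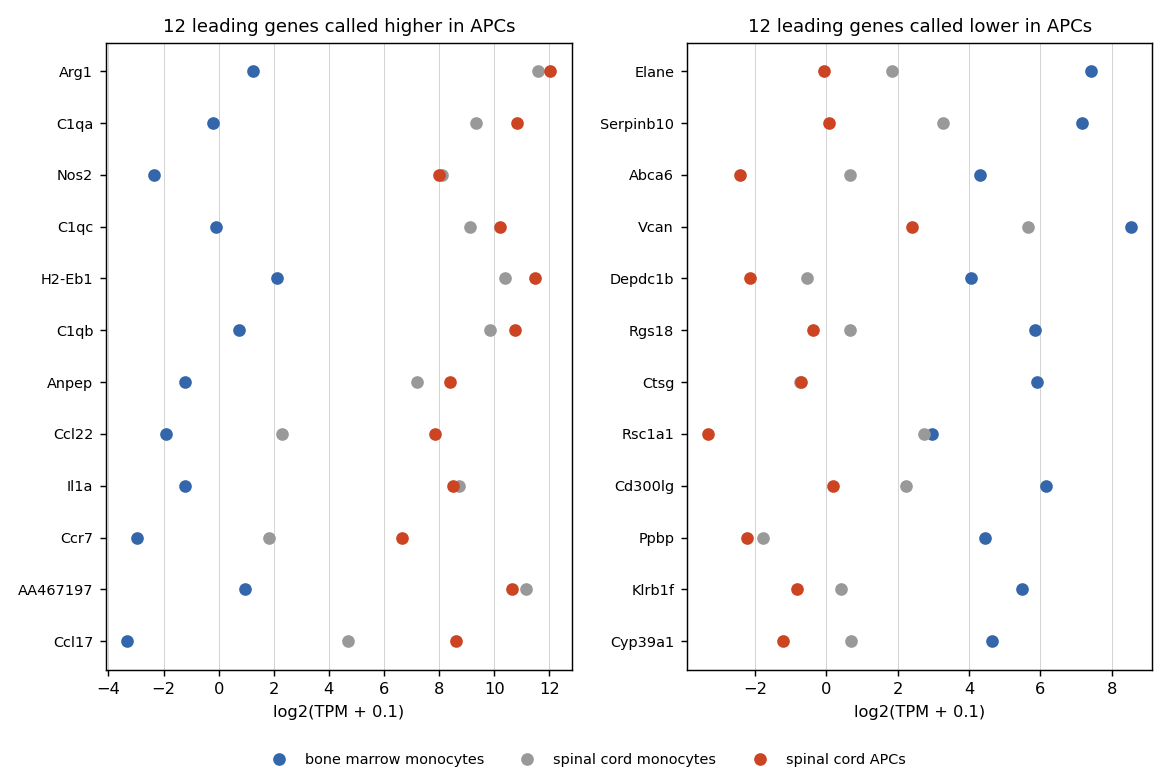
Log2(TPM + 0.1) in each of the 3 libraries, 1 point per library, for the 12 genes called higher (left) and the 12 called lower (right) whose interval bound nearest 0 was largest, among genes of similar effective length. On the left, spinal cord monocytes lie over 10-fold below the APCs for Ccl17, Ccl22 and Ccr7 and nearer for the other 9, and on the right they lie beside bone marrow monocytes for Rsc1a1 alone.

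The 12 genes that led the higher side by the interval bound nearest 0, leaving out genes of unequal effective length, were Arg1, C1qa, Nos2, C1qc, H2-Eb1, C1qb, Anpep, Ccl22, Il1a, Ccr7, AA467197 and Ccl17. Each had fewer than 100 reads in the marrow. Arg1, the arginase that turns arginine into ornithine and urea, had 59, 71856 and 107637 reads (2.27, 3097 and 4207 TPM) and a log2 fold change of 11.14 (10.73 to 11.60). Nos2, the inducible nitric oxide synthase that competes for the same amino acid, had 8, 20683 and 20867 reads and 11.56 (10.55 to 12.86). The spinal cord monocytes had a similar number of Nos2 reads as the APCs and fewer Arg1 reads. Anpep, a membrane aminopeptidase (CD13), had 23, 8709 and 23955 reads and 10.31 (9.67 to 11.06). AA467197, a small gene induced by inflammatory signals, had 21, 22431 and 17686 reads and 9.998 (9.33 to 10.78).

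Enzymes and transporters around Arg1 and Nos2 were higher as well. The list of arginine use, itaconate and glycolysis held 26 genes, Arg1 and Nos2 among them. All were active, and 20 were called higher and 0 lower, with a median of 2.25 and summed TPM of 7932, 21602 and 21134. Slc7a2, an arginine transporter, had 182, 16117 and 24069 reads and a log2 fold change of 7.37 (7.12 to 7.62). Ass1, which rebuilds arginine from citrulline, had 2.61 (2.56 to 2.67). Acod1, which makes itaconate, had 59, 23715 and 14939 reads and 8.29 (7.88 to 8.75). Among the genes of glucose use, the glucose transporter Slc2a1 had 1309, 17030 and 14661 reads (3.81, 3.71 to 3.91) and Ldha, which makes lactate, 1.86 (1.82 to 1.90). Gapdh, the most abundant of the list by reads, had 49739, 86086 and 135360 reads (effective length ratio 1.58). Hif1a, the oxygen-sensitive factor that drives glycolytic genes, had 2.37 (2.33 to 2.42), and Egln3, a hydroxylase that acts on it, 101, 3750 and 4679 reads and 5.85 (5.53 to 6.20). Eno1 (0.49), Pkm (0.82) and Pgk1 (0.97), enzymes of lower glycolysis, were not called. Of 32 nuclear genes of the respiratory chain and the TCA cycle, all active, 0 were called in either direction, with a median of -0.39 on reads and -0.65 on log2(TPM + 1). By a 2-fold change of log2(TPM + 1), 0 of them were higher and 6 lower.

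Cytokines made up the next group. Of 29 genes, 27 were active, 22 were called higher and 0 lower. The median log2 fold change of all 29 was 5.81, or 5.50 with the genes at 0 reads in the marrow at their bounds, and 3.40 on log2(TPM + 1). Summed TPM was 926, 9364 and 7956, so the spinal cord monocytes held more than the APCs. Il1b, the main secreted form of interleukin 1, had 139, 76494 and 66848 reads (6.37, 3821 and 2898 TPM), with 9.23 (8.95 to 9.52), and Il1a, its membrane-associated relative, 12, 13724 and 12895 reads and 10.32 (9.47 to 11.37). Il1rn, the antagonist of their receptor, had 6.51 (6.35 to 6.68). Tnf had 338, 10109 and 8136 reads and 4.91 (4.73 to 5.10). Il6, a cytokine that favours Th17 differentiation, had 5, 946 and 656 reads and 7.18 (5.96 to 8.85). Il12b and Il23a, subunits of the interleukin 12 family, which polarizes T cells, had far fewer reads than Il1b or Tnf in each library. Il12b, the shared chain of interleukins 12 and 23, had 0, 29 and 427 reads, at least 178-fold higher in APCs than the floor, and Il23a, the specific chain of the latter, had 5, 123 and 98 reads. Il10, an inhibitory cytokine, had 0, 191 and 113 reads, at least 47.2-fold. Vegfa, a factor for blood vessels, had 54, 25796 and 31412 reads and 9.49 (9.06 to 9.97), and Spp1, encoding osteopontin, 186, 16327 and 22688 reads and 7.25 (7.01 to 7.50). Hbegf, a growth factor for the EGF receptor, had 1, 1150 and 860 reads and 9.33 (7.34 to 12.83). Il18 (0.87) and Tgfb1 (0.60), cytokines that resting monocytes also make, were not called. Csf2, encoding GM-CSF, a cytokine that T cells make in EAE, had 0, 27 and 91 reads, beside T cell markers that were higher in APCs.

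Of 22 chemokines, 20 were active, 18 were called higher and 0 lower, with a median of 6.36 (6.35 with genes at 0 at their bounds). Ccl5, which attracts T cells and monocytes, had 3, 3631 and 3857 reads and a log2 fold change of 10.36 (8.91 to 12.52). Cxcl16, a ligand of CXCR6, had 44, 11383 and 17910 reads and 8.97 (8.50 to 9.51). Cxcl2, which attracts neutrophils, had 33.1, 3315 and 2666 TPM and 6.41 (6.29 to 6.54). The CXCR3 ligands Cxcl9 and Cxcl10 were higher in APCs than in the marrow but peaked in the spinal cord monocytes. Cxcl10 had 181, 22366 and 7870 reads (5.76, 5.52 to 6.02) and Cxcl9 203, 15225 and 12636 reads (6.28, 6.05 to 6.52). Ccl2, the ligand of CCR2, had 1234, 11245 and 3417 reads (1.79, 1.68 to 1.91). Ccl9 was an exception among abundant chemokines, with 25545, 14074 and 12705 reads, and was not called (effective length ratio 1.72).

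Receptors for chemokines and other attractants split. Of 21, 17 were active, 10 were called higher and 3 lower. Ccr2, the receptor for exit from the marrow, had 103692, 18305 and 9270 reads and a log2 fold change of -3.16 (-3.19 to -3.12). Ltb4r1, a leukotriene B4 receptor, had 3071, 1788 and 566 reads (-2.11, -2.27 to -1.96) and S1pr4, a sphingosine phosphate receptor, 998, 60 and 52 reads (-3.92, -4.42 to -3.47). Its relative S1pr1, which guides exit from lymphoid tissue, had 6, 246 and 384 reads (6.17, 5.03 to 7.70). Ccrl2, which binds chemerin without signalling, had 326, 31322 and 27565 reads (6.72, 6.54 to 6.92), and Cmklr1, the signalling receptor of chemerin, 175, 8143 and 8593 reads (5.94, 5.69 to 6.20). C3ar1, the receptor for complement fragment C3a, had 119, 8440 and 9232 reads (6.59, 6.30 to 6.92). Ccr1 (0.25) and Cx3cr1 (0.56) were not called, and Cx3cr1 had fewer reads in spinal cord monocytes than in either other library, with 6325, 2733 and 7419 reads.

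Of 22 complement and Fc receptor genes, 19 were active, 12 were called higher and 0 lower, with a median of 2.17, or 0.97 on log2(TPM + 1). Itgax, on whose protein the marrow cells had been gated as negative, is counted among those called higher. The Fc receptor gene Fcgr1, on whose protein only the spinal cord cells had been gated, was also called higher. The 3 chains of C1q, the recognition molecule of the classical pathway, had at most 28 reads each in the marrow. C1qa had 13, 9612 and 30148 reads, with a log2 fold change of 11.43 (10.61 to 12.44), C1qb 28, 14485 and 29901 reads (10.35, 9.77 to 11.03) and C1qc 17, 9908 and 23588 reads (10.71, 9.98 to 11.59). C1q is also made by microglia, whose 12 markers were called higher too, and the part of microglia was not tested. Cfb, a protease precursor of the alternative pathway, had 874, 41853 and 43938 reads and 5.98 (5.86 to 6.09), while C3 itself, at 87671, 53207 and 73135 reads, did not pass. The inhibitory Fc receptor Fcgr2b had 3.18 (3.13 to 3.23), and the activating Fcgr4 3.18 (3.07 to 3.30).

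Genes for taking up dead cells and digesting them were higher in part. Of 22 efferocytosis and scavenger receptors, 16 were active, 8 were called higher and 3 lower, and the medians of all 22 depended on the measure, with 3.14 on reads, 1.31 with genes at 0 reads at their bounds, 0.71 without the genes of unequal effective length and 0.23 on log2(TPM + 1). The TAM receptor Mertk had 49, 2160 and 4329 reads (6.77, 6.32 to 7.28) and Axl 511, 10567 and 17950 reads (5.46, 5.31 to 5.61), and their bridging ligand Gas6 4, 226 and 595 reads (7.32, 5.999 to 9.19). The scavenger receptor Stab1 had 158, 7228 and 6369 reads (effective length ratio 1.76), while Msr1 was not called, with 6916, 12626 and 10790 reads. Itgb3 (-2.50), the beta chain of an integrin for the bridging molecule Mfge8, the HDL receptor Scarb1 (-1.96) and Cd93 (-1.54) were called lower. Of 35 lysosome genes, all active, 17 were called higher and 0 lower, with a median of 1.05, or 0.67 on log2(TPM + 1). Cd63, a tetraspanin of lysosomes, had 90, 1938 and 4603 reads (5.99, 5.65 to 6.36). The proteases Ctsd, with 454, 1765 and 2837 TPM (2.96, 2.94 to 2.99), and Lgmn, with 66.7, 507 and 896 TPM (4.02, 3.95 to 4.10), were higher, whereas Lamp1 (0.31), Psap (0.21) and Lipa (-0.18), a membrane protein, an activator and a lipase of the same organelle, were not called. Gpnmb, a glycoprotein of lipid-laden macrophages, had 957, 11147 and 25876 reads and 5.08 (4.97 to 5.19) (effective length ratio 0.652). Ctsk, a collagen-digesting cathepsin, had 25, 242 and 648 reads and 4.99 (4.36 to 5.71), and Atp6v0d2, a proton pump subunit of macrophages and osteoclasts, 6, 414 and 1465 reads and 8.11 (6.97 to 9.62).

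Of 26 genes of lipid handling, 25 were active, 14 were called higher and 1 lower, with a median of 1.32, or 0.81 on log2(TPM + 1). Apoe, the lipid carrier, reached 10457 TPM from 1538, with a log2 fold change of 3.60 (3.57 to 3.62). Abca1, which loads cholesterol on such carriers, had 423, 8867 and 14711 reads (5.44, 5.28 to 5.61), and Nr1h3, encoding the sterol sensor LXR alpha, 17, 338 and 448 reads (4.99, 4.24 to 5.88). Cd36, a fatty acid receptor, had 75, 459 and 1058 reads (4.13, 3.75 to 4.55) and the tetraspanin Cd9 404, 10214 and 15895 reads (5.62, 5.46 to 5.79). Lpl, a lipoprotein lipase, was lower, with 5372, 1690 and 1323 reads (-1.70, -1.80 to -1.59). Iron and oxidant genes were higher in part. Fth1, the ferritin heavy chain, was the most abundant gene of the APC library at 28659 TPM, from 1333, with 4.54 (4.51 to 4.56). Of 25 NADPH oxidase and antioxidant genes, Fth1 among them, 22 were active, 9 were called higher and 3 lower. Of these calls, 6 higher and 2 lower ones also passed 2-fold on TPM. The share called lower was near the 11.8% of all active genes. Hmox1, which frees iron from haem, had 1.94 (1.87 to 2.003), and the cystine transporter Slc7a11 58, 4712 and 6099 reads (effective length ratio 1.78). The metallothionein genes Mt1, with 411, 2635 and 3558 reads, and Mt2, with 3, 262 and 452 reads (effective length ratio 1.65), were also higher. Sod1 (-1.36) and Gpx1 (-1.07), which remove superoxide and peroxide, and Rac2 (-1.20, effective length ratio 0.631), a GTPase that activates the oxidase, were lower, and the oxidase subunits Cybb (-0.77) and Ncf1 (0.18) were not called.

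Genes of adhesion and matrix turnover differed in both directions. Of 31, 29 were active, 16 were called higher and 5 lower, with a median of 1.86, or 1.20 on log2(TPM + 1). The sorting marker Itgax is counted among those called higher here too. Mmp12, the macrophage elastase, had 108, 1789 and 13171 reads and a log2 fold change of 7.25 (6.93 to 7.58) (effective length ratio 0.311), and Mmp14, a membrane-bound protease, 76, 10139 and 16343 reads and 8.06 (7.69 to 8.46). Timp1, an inhibitor of such proteases, had 0, 801 and 476 reads, at least 199-fold higher in APCs than the floor. Tgm2, a transglutaminase that crosslinks matrix proteins, had 66, 90327 and 35595 reads and 9.39 (8.99 to 9.82). The genes called lower included Itga4 (-1.52) and Itgb7 (-1.99), chains of homing integrins, Fn1 (-1.06), encoding fibronectin, and Mmp8 (-2.07), a neutrophil collagenase.

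Transcription factors of acute activation were higher as a group. Of 32 AP-1, EGR, NR4A and NF-kappa B genes, all active, 27 were called higher and 0 lower, with a median of 2.65. Egr2 had 30, 6611 and 6139 reads and a log2 fold change of 7.97 (7.40 to 8.62), its relative Egr3 1, 530 and 830 reads and 9.28 (7.29 to 12.78), and the orphan nuclear receptor Nr4a3 24, 9051 and 17182 reads and 9.77 (9.14 to 10.50). Atf3, a stress-induced factor, had 1335, 43874 and 23505 reads and 4.46 (4.37 to 4.56), with more reads in spinal cord monocytes. Maff, a small Maf protein, had 33, 6783 and 4674 reads and 7.44 (6.90 to 8.06). Tnfaip3, an inhibitor of NF-kappa B, had 5.42 (5.31 to 5.53). Fos (0.47), Ier2 (-0.35), Klf2 (-0.50), Nfkb1 (0.004) and Rela (0.43) were not called. Of 34 myeloid transcription factors, all active, 17 were called higher and 2 lower, with a median of 1.40, or 0.80 on log2(TPM + 1). Bhlhe40, a repressor active in macrophages, had 440, 26807 and 28290 reads and 6.33 (6.17 to 6.49). Its relative Bhlhe41 had 12, 410 and 1332 reads (effective length ratio 0.482), and Id2, an inhibitor of helix-loop-helix factors, 4230, 17696 and 16385 reads and 2.28 (2.22 to 2.34). Prdm1, a repressor also known as Blimp-1, had 252, 6975 and 5488 reads and 4.77 (4.55 to 4.99). Cebpe, a factor of granule-forming precursors, was lower, with 302, 74 and 29 reads and -3.02 (-3.71 to -2.42), as was Cebpd (-1.45). Spi1, encoding PU.1 (-0.12), and Irf8 (0.002), which define the lineage, were not called.

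Interferon-stimulated genes were higher than in the marrow, while in summed TPM the spinal cord monocytes stood above both. Of 40, all active, 23 were called higher and 2 lower, with a median of 1.60 and summed TPM of 3752, 10660 and 5140. Gbp2, a guanylate-binding protein induced by interferon gamma, had 2148, 46934 and 27636 reads and a log2 fold change of 4.01 (3.94 to 4.09). Iigp1, a GTPase of the same response, had 288, 6339 and 5908 reads and 4.68 (4.48 to 4.89). Rsad2, an antiviral enzyme, had 235, 5361 and 2198 reads and 3.55 (3.32 to 3.78), and Isg15, a ubiquitin-like modifier, 238, 4218 and 1706 reads and 3.16 (2.94 to 3.40). Ifi44 had 17, 326 and 315 reads and 4.49 (3.73 to 5.38). Ifitm3, which blocks viral entry, was lower, with 19640, 15515 and 6372 reads and -1.30 (-1.35 to -1.25), as was Cmpk2, a nucleotide kinase, with 2250, 1447 and 503 reads and -1.83 (-2.002 to -1.67). Mx1 (-0.35), Oas3 (0.17) and Dhx58 (0.22), also interferon-induced, were not called.

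Of 28 pattern recognition and inflammasome genes, all active, 9 were called higher and 4 lower, with a median of 0.19 on reads and -0.16 on log2(TPM + 1). Cd14, a coreceptor for endotoxin, had 2146, 55272 and 39978 reads and a log2 fold change of 4.54 (4.47 to 4.62). The C-type lectins split by member. Clec4n (dectin 2) had 110, 4564 and 10762 reads (6.93, 6.62 to 7.26) and Clec4d 486, 7372 and 8245 reads (4.41, 4.25 to 4.57). Clec7a (dectin 1), already abundant in the marrow, had 14127, 67277 and 81879 reads (2.86, 2.83 to 2.89). Clec4a1 (-2.36), Clec4a2 (-2.32) and Clec4a3 (-2.15) were lower, as was Tlr13 (-1.32), a sensor of bacterial ribosomal RNA. These 3 Clec4a genes are close relatives, between which reads can be split. Tlr3, a sensor of double-stranded RNA, was higher, with 79, 304 and 702 reads and 3.47 (3.08 to 3.88), and Tlr4 (0.76), Tlr7 (-0.08) and Myd88 (-0.79) were not called. Of 30 cytokine receptor chains, 29 were active, 12 were called higher and 4 lower, with a median of 0.58, or 0.24 on log2(TPM + 1). Il7r, a receptor chain best known from lymphocytes, had 4, 1508 and 3796 reads and 9.99 (8.68 to 11.86), and Il2rg, the common gamma chain, 1411, 6992 and 9633 reads and 3.10 (3.001 to 3.19). Il21r, which pairs with that chain, had 75, 2566 and 3037 reads and 5.65 (5.28 to 6.06), and Il12rb1, shared by the receptors of interleukins 12 and 23, 27, 552 and 552 reads and 4.65 (4.03 to 5.35). Csf1r, the receptor for the macrophage growth factor M-CSF, had 25353, 38236 and 47827 reads and 1.24 (1.22 to 1.27) (effective length ratio 0.638). Csf2rb2 had 2.21 (2.15 to 2.27), and its near-identical neighbour Csf2rb, the common beta chain for GM-CSF, 0.94 (effective length ratio 0.577, not called). The interleukin 6 receptor chains Il6ra, with 21389, 5152 and 3990 reads (-2.10, -2.15 to -2.04), and Il6st (-1.63), the interferon gamma receptor chain Ifngr1 (-1.15) and Il17ra (-2.54, effective length ratio 2.06) were lower.

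The lower side held the genes that mark classical monocytes. The gates, Ly6Chi for the marrow cells and Ly6Clow/- for the APCs, already select for this direction at Ly6C. Of 18, all active, 15 were called lower and 1 higher, with a median of -2.08, and summed TPM fell from 81053 through 36326 to 19747. Vcan, encoding the proteoglycan versican, had 60115, 7573 and 766 reads and a log2 fold change of -5.97 (-6.09 to -5.85). Cd177, a surface glycoprotein, had 13248, 1520 and 464 reads and -4.51 (-4.67 to -4.35). F13a1, the A chain of clotting factor XIII, had 188312, 16556 and 12770 reads and -3.56 (-3.59 to -3.53). The most abundant genes of the marrow library moved less. Lyz2, encoding lysozyme, had 34515, 14312 and 10443 TPM and -1.42 (-1.43 to -1.42), and was still among the 10 most abundant genes of APCs. Chil3, a chitinase-like lectin, had 24589, 9189 and 3902 TPM and -2.35 (-2.37 to -2.34). Plac8 had 26735, 32067 and 5172 reads and -2.04 (-2.10 to -1.99), with its highest reads in spinal cord monocytes. Thbs1, encoding thrombospondin, was the member called higher, with 11779, 158491 and 73149 reads and 2.96 (2.93 to 2.99). Klf4 and Itgal were not called.

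Of 20 granule proteins of early myeloid development, 18 were active, 14 were called lower and 2 higher, with a median of -2.05. The 2 were the gelatinase gene Mmp9 and the tetraspanin gene Cd63, which also act outside granules. The neutrophil elastase gene Elane had 2664, 48 and 13 reads and a log2 fold change of -7.28 (-8.29 to -6.46). Ctsg, encoding the related protease cathepsin G, had 929, 7 and 8 reads and -6.42 (-7.73 to -5.41). Mpo, encoding myeloperoxidase, had 2981, 66 and 58 reads and -5.34 (-5.81 to -4.92), and Fcnb, a lectin of precursor granules, 1301, 59 and 41 reads and -4.64 (-5.20 to -4.14). Prtn3, encoding proteinase 3, had 4381, 586 and 160 reads and -4.44 (-4.72 to -4.18) (effective length ratio 0.607). Ms4a3, a marker of granulocyte and monocyte precursors, had 336, 41 and 5 reads and -5.57 (-7.24 to -4.34). Proteins of later granules were lower in part. Lcn2 had 14592, 1785 and 1175 reads (-3.31, -3.41 to -3.21) and the calprotectin genes S100a8 23635, 3115 and 2625 reads (-2.85, -2.91 to -2.78) and S100a9 13000, 1734 and 2546 reads (-2.03, -2.10 to -1.95), while Ngp, with 3826, 445 and 3178 reads, and Ltf, with 1110, 234 and 1410 reads, were not called. The latter pair had fewer reads in spinal cord monocytes than in either other library. Ngp, Ltf, Camp, Mmp8, S100a8 and S100a9 are also neutrophil markers. Of 11 such markers 3 were called higher in APCs and 4 lower, with summed TPM of 7861, 1345 and 1456. The 4 were Camp, Mmp8, S100a8 and S100a9, and S100a8 had the highest TPM of these markers. Those called higher were Cxcr2 with 153, 488 and 394 reads, Retnlg with 13, 107 and 423 reads and Stfa2l1 with 3, 29 and 66 reads.

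The 12 genes that led the lower side were Elane, Serpinb10, Abca6, Vcan, Depdc1b, Rgs18, Ctsg, Rsc1a1, Cd300lg, Ppbp, Klrb1f and Cyp39a1. Serpinb10, a protease inhibitor of myeloid precursors, had 3525, 206 and 20 reads and a log2 fold change of -7.09 (-7.90 to -6.41). Abca6, a lipid transporter, had 1564, 118 and 9 reads and -7.01 (-8.24 to -6.05). Rgs18, a regulator of G protein signalling, had 2169, 50 and 25 reads and -6.08 (-6.80 to -5.46). Klrb1f belongs to a family of close paralogs and had 1124, 20 and 14 reads. Ppbp, a platelet chemokine, had 380, 3 and 2 reads, with -6.83 (-9.45 to -5.17), and the only other active platelet marker, Pf4, had 56, 42 and 102 reads and was not called. Rsc1a1 had 245, 186 and 0 reads, at least 65.2-fold lower in APCs than in the marrow, but all 1719 of its 31-base words also lie in Ddi2, which had 10650, 4547 and 4564 reads and was not called, so its reads cannot be assigned with certainty.

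Genes of cell division were lower in APCs, those of mitosis without exception. Of 40 genes of mitosis, all active, 40 were called lower and 0 higher, with a median of -3.18, and summed TPM went from 2074 through 210 to 215. Of 40 genes of DNA replication, 39 were active, 25 were called lower and 0 higher, with a median of -1.80, and 34 were lower by 2-fold on log2(TPM + 1). Many mitosis genes are controlled through a CCAAT box and a cell cycle homology region downstream of it, whose core was searched here as TTTGAA or its reverse complement TTCAAA. Within 110 bases before the start site, 21 of 33 mitosis genes with a promoter in RefSeq held CCAAT (63.6%, against 27.9% of active genes), 9 held TTTGAA (27.3%, against 4.50%) and 7 held both (21.2%, against 1.29%). The stretches of 4 genes with both motifs are shown, in the same form as above, because they carry the pair together. In Kif11, Top2a and Prc1 the CCAAT box lies upstream of TTTGAA, and in Ckap2 downstream.
Kif11, chr19:37376272-37376381, plus strand: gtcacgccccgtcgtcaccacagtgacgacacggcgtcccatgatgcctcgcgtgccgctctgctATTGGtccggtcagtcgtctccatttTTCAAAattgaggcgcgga
Top2a, chr11:99024190-99024299, minus strand: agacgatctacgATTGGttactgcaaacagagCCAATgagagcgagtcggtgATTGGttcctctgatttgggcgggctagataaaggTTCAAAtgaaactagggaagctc
Prc1, chr7:80294366-80294475, plus strand: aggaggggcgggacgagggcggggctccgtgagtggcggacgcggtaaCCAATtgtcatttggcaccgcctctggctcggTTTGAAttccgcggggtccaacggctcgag
Ckap2, chr8:22185820-22185929, minus strand: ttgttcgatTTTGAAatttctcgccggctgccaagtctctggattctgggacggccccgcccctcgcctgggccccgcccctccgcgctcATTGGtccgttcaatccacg

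Kif11, the motor that separates spindle poles, had 4985, 172 and 228 reads and a log2 fold change of -4.12 (-4.35 to -3.90). Top2a, which untangles sister DNA molecules, had 15236, 683 and 877 reads and -3.79 (-3.91 to -3.68). Prc1, which bundles the midzone of the spindle, had 2593, 155 and 180 reads and -3.52 (-3.78 to -3.27), and Ckap2, a spindle protein, 706, 62 and 50 reads and -3.48 (-3.99 to -3.01). Anln, a scaffold of the cleavage furrow, had the lowest log2 fold change of the mitosis list, with 2712, 87 and 91 reads and -4.56 (-4.93 to -4.22). Mki67, the proliferation marker Ki-67, had 19307, 1629 and 2574 reads and -2.58 (-2.65 to -2.51). Racgap1, a regulator of cytokinesis, had 5734, 269 and 322 reads and -3.83 (-4.02 to -3.64). In each of these 7 genes the spinal cord monocytes had far fewer reads than the marrow. Among replication genes, Mcm5, a subunit of the helicase, had 5531, 478 and 666 reads (-2.73, -2.87 to -2.59), Ccne2, a cyclin of entry into S phase, 1299, 57 and 76 reads (-3.76, -4.17 to -3.38), and Rrm2, which makes deoxynucleotides, 4638, 199 and 250 reads (-3.88, -4.11 to -3.67), while Pcna, the sliding clamp, which also serves in DNA repair, had 7428, 4359 and 3916 reads (-0.60, -0.67 to -0.53) and was not called. Among the 10 genes of highest marrow TPM with 0 reads in APCs, 6 were core histone genes, such as Hist1h2af with 67, 3 and 0 reads, but histone genes are near-identical and their messages mostly lack the poly(A) tail.

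Genes of earlier progenitors did not move together. Of 18, 9 were active, 4 were called higher and 4 lower. Myb, a factor of dividing precursors, had 582, 22 and 26 reads (-4.12, -4.84 to -3.50), Flt3, a receptor of progenitors and dendritic cells, 2746, 239 and 472 reads (-2.21, -2.38 to -2.05), and Spn, encoding CD43, 8315, 622 and 1013 reads (-2.71, -2.82 to -2.60). Kit, the stem cell factor receptor, was higher, with 22, 87 and 718 reads (5.31, 4.65 to 6.09), as were Cd34, with 151, 543 and 1318 reads (3.44, 3.17 to 3.74), Sox4 and Myc.

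**Figure D4:**
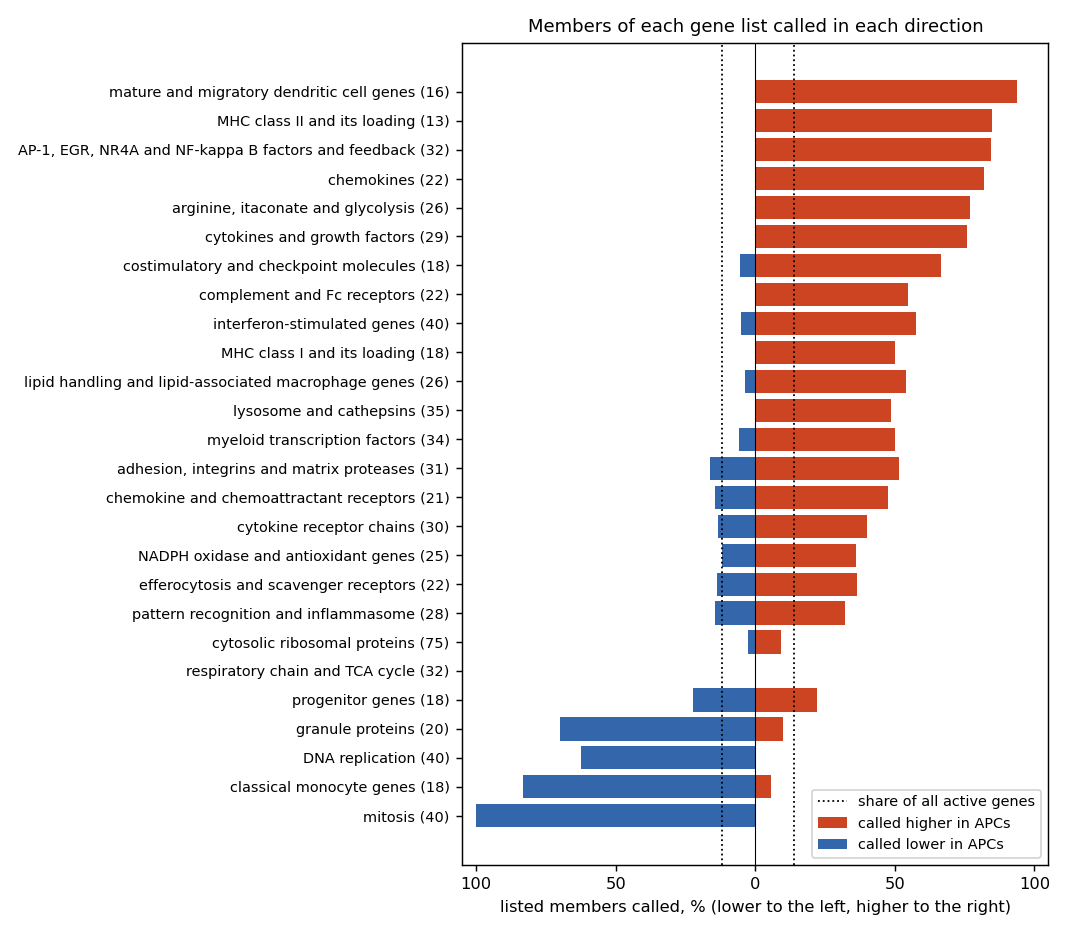
For each of 26 gene lists, with the number of members in the files in parentheses, the bars give the percentage of listed members called higher (right of 0) and lower (left of 0) in APCs. Dotted lines mark the 14.0% and 11.8% of all active genes, a share that leaves out inactive genes, while the bars also count inactive members of a list. Mature dendritic cell, MHC class II and activation genes reach furthest right and all 40 mitosis genes lie on the left.

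Markers of further cell types were low in APCs but seldom absent. Of 8 erythroid markers 3 were called higher, with summed TPM of 1.94, 148 and 50.6, and the globin genes Hba-a1 and Hba-a2, near-identical copies, had 0, 128 and 59 reads and 9, 403 and 168 reads. Of 7 NK cell markers 2, Gzma and Gzmb, were called higher, and the defining receptor gene Ncr1 had 0, 0 and 3 reads. Of 9 endothelial markers 3 were called higher, with summed TPM of 17.7, 91.4 and 53.8, led by Flt1 with 965, 4062 and 3625 reads, a gene that monocytes also express. Of 7 oligodendrocyte markers 3 were called higher, such as the myelin gene Mobp with 1, 292 and 345 reads, and 1, Mbp, lower, with 6705, 2110 and 2313 reads. Of 6 astrocyte markers 3 were called higher, with summed TPM of 4.17, 18.5 and 19.6. Gfap, their intermediate filament, had 7, 256 and 185 reads (effective length ratio 16.9). Of 8 CNS-associated macrophage markers 3 were called higher, among them the mannose receptor gene Mrc1 with 159, 649 and 1915 reads, and 1, Cbr2, lower, with 67, 17 and 11 reads, and the defining gene Lyve1 had 0, 2 and 0 reads. The part of all these cells in the differences was not tested. No B cell marker was called, with 1 of 8 active, and none of the fibroblast, neuron or mast cell markers was active.

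All 13 protein genes of the mitochondrial genome were called higher in APCs, with log2 fold changes of 1.30 to 3.08, while 0 of the 32 nuclear respiratory genes were. The marrow file lists near-identical copies that the APC file lacks. Gm28661, all of whose 651 31-base words lie in mt-Co2, took 60921 marrow reads, against 27856 on mt-Co2 itself and 188177 on mt-Co2 in APCs. With the reads of such copies added back, an alternative chosen after seeing the data, the 13 genes had 0.43 to 1.61 and 11 were called, mt-Co3 and mt-Nd3 not. The summed TPM of the 13 genes was 48794, 59402 and 130292. For mt-Co1, whose copy Gm29216 took 382 marrow reads, the libraries had 251316, 331532 and 612348 reads and 1.61 (1.60 to 1.62). Of 75 cytosolic ribosomal protein genes, all active, 7 were called higher and 2 lower, with a median of 0.03, or -0.31 on log2(TPM + 1), and with the copies added back 1 was called higher. Rpl5 had 1004, 525 and 24341 reads, and its copy Gm15500 took 26246 in the marrow. The gene left was Rps27, with 341, 245 and 1413 reads, whose paralog Rps27rt had 11665, 10852 and 5452 reads and was not called. The 2 called lower were Rpl10, with 20291, 14810 and 5799 reads, and Rps14, with 21342, 16498 and 8072 reads.

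**Figure D5:**
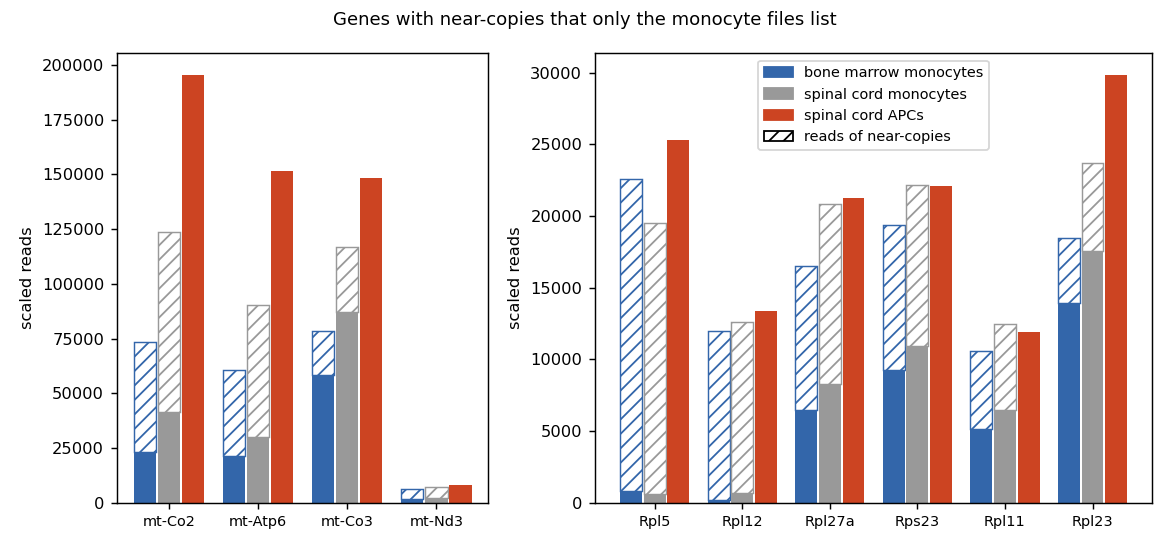
Scaled reads of 4 mitochondrial and 6 ribosomal protein genes in each library, with hatched bars for the reads on near-identical copies that only the monocyte files list. With the hatched parts, the bone marrow bars of the 6 ribosomal genes come within 2-fold of the APC bars, while those of mt-Co2 and mt-Atp6 stay over 2-fold lower.

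Over all genes, 150 copies of 121 genes held 389411 marrow reads by this measure, and adding them removed 19 of the 1426 calls of higher genes and added 5 to the 1199 of lower ones. Sec61g is counted in both, since it passed from called higher to called lower. It had 544 marrow reads, 2685 marrow reads on its copy and 1157 APC reads. Gm20594, at 0, 0 and 10245 reads, shares 42 of its 419 31-base words with the mitochondrial ribosomal RNA mt-Rnr2, which is not listed for APCs. Lrrc17 had 0, 0 and 1191 reads, with 52 of its 3576 words in the noncoding RNA Bc1. The genes of highest APC TPM with 0 reads in the marrow also included Gem, a GTPase, with 0, 755 and 1374 reads, and the Gm-numbered genes Gm10160, Gm10203 and Gm10974, and those with 0 in APCs Gm7029 and the antibody segments Ighj2 and Ighj4, with 2, 0 and 0 reads and 2, 1 and 0 reads. Asdurf, all of whose 270 words lie in Gm28551, had 0, 0 and 92 reads. Gm49450 had 0, 45 and 1554 reads, with 742 of its 869 words in the tubulin gene Tuba1a. Trim2, the gene of unequal effective length whose interval lay furthest below 0, had 8075, 10448 and 42 reads (ratio 1.78), with its highest reads in spinal cord monocytes. The other genes that led among those of unequal effective length were, on the higher side, Tnfrsf9, encoding the costimulatory receptor 4-1BB, with 0, 709 and 2517 reads (ratio 1.58), Klrb1b with 1, 329 and 2235 reads (ratio 1.63), Pmepa1 with 1, 1039 and 1952 reads (ratio 0.36) and Dab2, an endocytic adaptor, with 16, 9562 and 13722 reads (ratio 0.61). On the lower side they were Aox3 with 220, 14 and 0 reads (ratio 1.66), Rem1 with 404, 1 and 2 reads (ratio 0.231), Hal, which breaks down histidine, with 1280, 42 and 23 reads (ratio 1.79), and Grb14 with 319, 6 and 3 reads (ratio 0.423).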

How the data were processed

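RNA from pooled, sorted cells was made into mRNA libraries and sequenced as paired-end reads of 50 bases. The authors quantified transcripts with Salmon 0.14.1 against GENCODE transcripts (mm10), and deposited gene-level estimated counts, TPM values and effective lengths. The APC file lists fewer genes than the monocyte files, and what its name calls pc25mer is not explained in the sources used here.

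From the deposited values, estimated counts were rounded to whole reads and compared over the 22238 genes common to all files. These held 84.9%, 85.3% and 99.989% of the deposited TPM, and TPM was rescaled to sum to 1000000 over them. Of the common genes, 22022 (99.0%) had the same identifier and version in GENCODE M21 (GRCm38), from which symbols were taken. Reads were scaled by median-of-ratios size factors (1.206, 0.8635 and 0.9625). The fold change followed the GFold definition, computed anew: gamma posteriors of the reads, with 1 read added, gave the median log2 ratio and its percentiles 1 and 99. Differences of TPM were taken on log2(TPM + 1). With 1 library of each population no count model was fitted, and edgeR served for TMM factors only. The steps were tested on reads simulated from the counting model that the interval assumes. The simulation held no variation between libraries, unequal effective lengths or near-copies, so it cannot show how these affect the calls.

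At the median gene, 1 read was worth 0.0209 TPM in the bone marrow library, 0.0242 TPM in that of spinal cord monocytes and 0.0204 TPM in that of APCs. Against a library with 0 reads, a fold is a bound computed from a floor of 3 reads in that library. Near-copies were genes listed only for monocytes with at least 100 reads, at least 100 shared 31-base words and at least 25% of their words shared. Promoters were the 250 bases before RefSeq start sites. The named genes were the 12 leading called genes in each direction, 5 in each direction among those of unequal effective length, the 10 most abundant of each library, the 10 most abundant with 0 reads in the other library, the most abundant and up to 4 leading members in each direction of each list, the sorting markers, and members that the account of a list needed. Some genes that this rule names are not reported here. Copies, paralogs and overlapping genes were named after their values were seen. The members and lists were chosen with earlier results of these data known. Alternatives changed the scaling, measure, filter, interval and genes compared. Analyses used R 4.3.3 with edgeR 4.0.16, and scipy 1.17.1, pandas 2.3.3, numpy 2.4.6 and matplotlib 3.10.9 under Python 3.11.15.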

Additional observations from a re-analysis of the deposited data

How the results depend on the processing

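Over all alternatives, 725 to 2870 genes were called higher in APCs and 231 to 2682 lower. The high end of the first range came without a filter on TPM (2870 higher), where genes of few reads entered. With an assumed coefficient of variation of 0.2 between libraries added to the counting interval, 979 genes were called higher and 503 lower, and with 0.4, 725 and 231, so the counts rest on how far replicate libraries would have varied, which 1 library of each population cannot show. By 2-fold changes of TPM, 2433 genes were lower with 1 TPM added and 2682 with 0.1 TPM added. After subtracting the median of the active genes, an alternative chosen after seeing the data, the split was 1794 to 1190, and with near-copy reads added, also chosen after seeing the data, it was 1407 to 1204. Of 345 named genes, 279 were called. Among these the total-read scaling lost 2 calls, per-length reads 4, 2-fold TPM 7 (Fcgr1, Gapdh, Gfap, Nlrc5, Rac2, Tap1 and mt-Atp8), a filter of 4 TPM 5, wider percentiles 3, near-copy reads 5 (Rpl5, Rpl12, Rpl27a, mt-Co3 and mt-Nd3), and coefficients of variation of 0.2 and 0.4 lost 41 and 77. Of these 279 called genes, 0 changed direction under any alternative run. Outside the 345, Sec61g passed from called higher to called lower with near-copy reads added. The sign of named genes that stayed uncalled, some of them near 0, was not compared. No paired analysis was possible because each population was 1 library with no replicate number shared through the labels, and for the same reason no library could be left out. Tissue, cell preparation, the set of genes a file lists and population cannot be told apart.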
